A study of Mus musculus with 42 samples.

Results

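Aldh1a2 encodes a retinaldehyde dehydrogenase that makes retinoic acid. Binding of induced HOX factors and of their cofactors MEIS and PBX was followed around this gene by chromatin immunoprecipitation sequencing (ChIP-seq) in mouse embryonic stem cells that differentiate towards spinal motor neurons. Aldh1a2 (ENSMUSG00000013584.5 in GENCODE mouse release 21) lies on the plus strand of chr9:71215789-71296243 in build mm10 and has 14 exons in its single annotated transcript. All binding events of the 21 deposited lists that fell in the gene or in the 50 kb on either side, chr9:71165789-71346243, were taken, and events within 100 bp of each other were chained into 1 site. This gave 209 of the 1087512 events of the series and 46 of its 377386 merged sites.

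Retinoic acid is a small diffusible signal that patterns the hindbrain and spinal cord. Its synthesis from retinol ends with an aldehyde dehydrogenase step, which Aldh1a2 carries out in the mesoderm beside the early neural tube and later in motor neurons that innervate the limbs. HOX factors are homeodomain proteins whose paralog groups are expressed one after another along the body axis and give motor neurons their segmental identity. The central factors HOXC6 and HOXC8 and the posterior factor HOXC10 are linked to limb levels, and HOXC9, also a posterior factor, to the thoracic level in between. HOXA9, HOXD9 and HOXC13 are posterior factors too. MEIS and PBX are homeodomain cofactors that bind DNA together with many HOX factors.

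Each cell line was derived from the embryonic stem cell line Ainv15 and carried a single doxycycline (Dox)-inducible, tagged Hox transgene, so every comparison below is between forced expression of different factors and not between wild-type tissues. Full-length HOXA9, HOXC6, HOXC8, HOXC9, HOXC10, HOXC13 and HOXD9, 7 factors, and 4 chimeras were assayed after 3 days with retinoic acid and smoothened agonist and 24 h of Dox. Day 4 cultures, after 48 h of Dox, were assayed for HOXC10, HOXC9 and HOXC6. HOXC6 and HOXC9 were further assayed in embryoid bodies (EBs) that received 12 h of Dox and neither retinoic acid nor the agonist. The patterned cultures thus contained the product of the Aldh1a2 enzyme and the EBs were not given it. The HOXC13 transgene was human. In HOXC13:C10.1 the amino-terminal part of HOXC13 was joined to the homeodomain and carboxyl terminus of HOXC10, and in HOXC13:C10.2 a stretch in front of the homeodomain was also taken from HOXC10. HOXC10:C13.1 joined the parts the other way round, as did HOXC10:C13.2 with the same longer exchange. MEIS was assayed at day 3 in V5-tagged iHoxc6, iHoxc9 and iHoxc10 lines, and PBX at day 4 in Flag-tagged iHoxc9 and iHoxc10 lines. The antibody was to Flag for the other HOX libraries, to HA for 1 library each of HOXC13, HOXA9 and HOXD9, and a further one for the first HOXC10 library at day 3, from a V5-tagged line.

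The lists held between 848 and 128388 events, and their libraries between 5.04 and 32.9 M aligned reads. The fraction of reads that the caller assigned to signal was 0.075 for the pooled day 3 HOXC6 libraries, the lowest of the HOX lists at day 3, and 0.349 for HOXC13, the highest among the full-length factors at that day. Every list was called on the pooled libraries of its group, so no value below has an error between replicates and none was tested. Intervals are 95% intervals of counting error only. A missing event means that none passed the threshold of the caller and not that the factor was absent.

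The sequences below are those of the 7 sites that 10 or more of the 16 HOX lists held, followed by 3 sites that separate groups of factors. They are shown because the events of different factors fall on the same stretches. They were read 5′ to 3′ on the plus strand of RefSeq's GRCm38 assembly, which is the same build as mm10. For the 3 strongest sites the stretch runs from 50 bp before the first event to 50 bp after the last, and for the others it covers 50 bp on each side of the mean position. Capitals mark 5 motifs on either strand. TAAT is a core motif of central HOX factors, TTTAT is one of the posterior factors and TTTAC is one of HOXC13. TGATTTAT is a motif of PBX-HOX pairs, and TGACAG is a motif of MEIS. Overlapping matches run together, and each TGATTTAT holds a TTTAT.
Upstream 48.1 kb, chr9:71167624-71167724: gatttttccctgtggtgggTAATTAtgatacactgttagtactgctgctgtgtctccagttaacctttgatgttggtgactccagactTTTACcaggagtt
Upstream 40.1 kb, chr9:71175663-71175786: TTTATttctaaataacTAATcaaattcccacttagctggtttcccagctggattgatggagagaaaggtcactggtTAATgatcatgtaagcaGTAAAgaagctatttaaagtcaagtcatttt
Downstream 1.6 kb, chr9:71217275-71217542: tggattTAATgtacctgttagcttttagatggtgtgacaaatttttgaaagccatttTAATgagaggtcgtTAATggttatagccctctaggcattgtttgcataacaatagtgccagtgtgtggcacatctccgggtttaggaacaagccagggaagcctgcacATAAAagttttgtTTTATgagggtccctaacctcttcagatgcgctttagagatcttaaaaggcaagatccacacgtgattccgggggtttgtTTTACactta
Downstream 2.0 kb, chr9:71217711-71217811: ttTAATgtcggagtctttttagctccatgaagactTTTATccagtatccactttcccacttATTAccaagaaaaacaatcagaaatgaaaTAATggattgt
Downstream 12.3 kb, chr9:71228071-71228171: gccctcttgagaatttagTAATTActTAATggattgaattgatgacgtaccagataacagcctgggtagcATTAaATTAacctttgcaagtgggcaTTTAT
Downstream 25.9 kb, chr9:71241591-71241846: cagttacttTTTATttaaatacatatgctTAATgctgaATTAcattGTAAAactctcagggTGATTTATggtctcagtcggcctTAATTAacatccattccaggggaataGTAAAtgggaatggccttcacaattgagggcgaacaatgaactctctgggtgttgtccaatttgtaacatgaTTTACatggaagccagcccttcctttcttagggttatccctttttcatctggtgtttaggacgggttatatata
Downstream 26.3 kb, chr9:71242035-71242135: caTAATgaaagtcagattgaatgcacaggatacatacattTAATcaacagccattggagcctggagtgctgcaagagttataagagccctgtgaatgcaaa
Upstream 4.30 kb, chr9:71211435-71211535: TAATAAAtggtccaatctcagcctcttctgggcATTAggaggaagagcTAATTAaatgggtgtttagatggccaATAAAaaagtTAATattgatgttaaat
Downstream 26.6 kb, chr9:71242320-71242420: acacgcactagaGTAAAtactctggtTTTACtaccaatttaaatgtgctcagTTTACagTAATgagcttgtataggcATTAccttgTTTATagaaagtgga
Downstream 40.6 kb, chr9:71256337-71256437: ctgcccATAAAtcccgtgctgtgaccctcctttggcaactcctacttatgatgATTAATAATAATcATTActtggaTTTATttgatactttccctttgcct

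Distances are counted from the transcription start of Aldh1a2, and the sites are named by them. The 25.9 kb site held 1 copy of TGATTTAT, at chr9:71241652-71241659, and 3 of TTTAC, beside copies of TAAT and TTTAT. That TGATTTAT lay 80.5 bp from the day 3 HOXC10 event and 64.5 bp from the day 3 HOXC9 event. The 1.6 kb site held 3 copies of TAAT, 2 of TTTAT and 1 of TTTAC. All 7 widely held sites had a TAAT within 50 bp of their mean position. Over the 46 sites, TAAT was found within 50 bp in 82.6%, against 72.4% of 377270 merged sites on assembled chromosomes. TTTAT was found in 65.2% against 61.3%, TTTAC in 39.1% against 30.3%, TGATTTAT in 4.35% against 3.38% and TGACAG in 4.35% against 8.37%. A match is a description of the letters and not a measured contact.

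Of the 46 sites, 12 lay upstream of the gene, 28 in its introns, 1 in its last exon and 5 downstream of it. Intron 1 alone held 24. No event lay within 1 kb of the transcription start, and the nearest site on the gene side was 1.04 kb into intron 1. From 47.5 to 80.4 kb downstream of the start, over the second part of the gene, no list had an event. Of the upstream sites, 9 overlapped the long non-coding RNA gene Gm32511, and the farthest of them also overlapped Aqp9, which encodes a water and glycerol channel. Binding there is counted for Aldh1a2 by position alone.

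**Figure D1:**
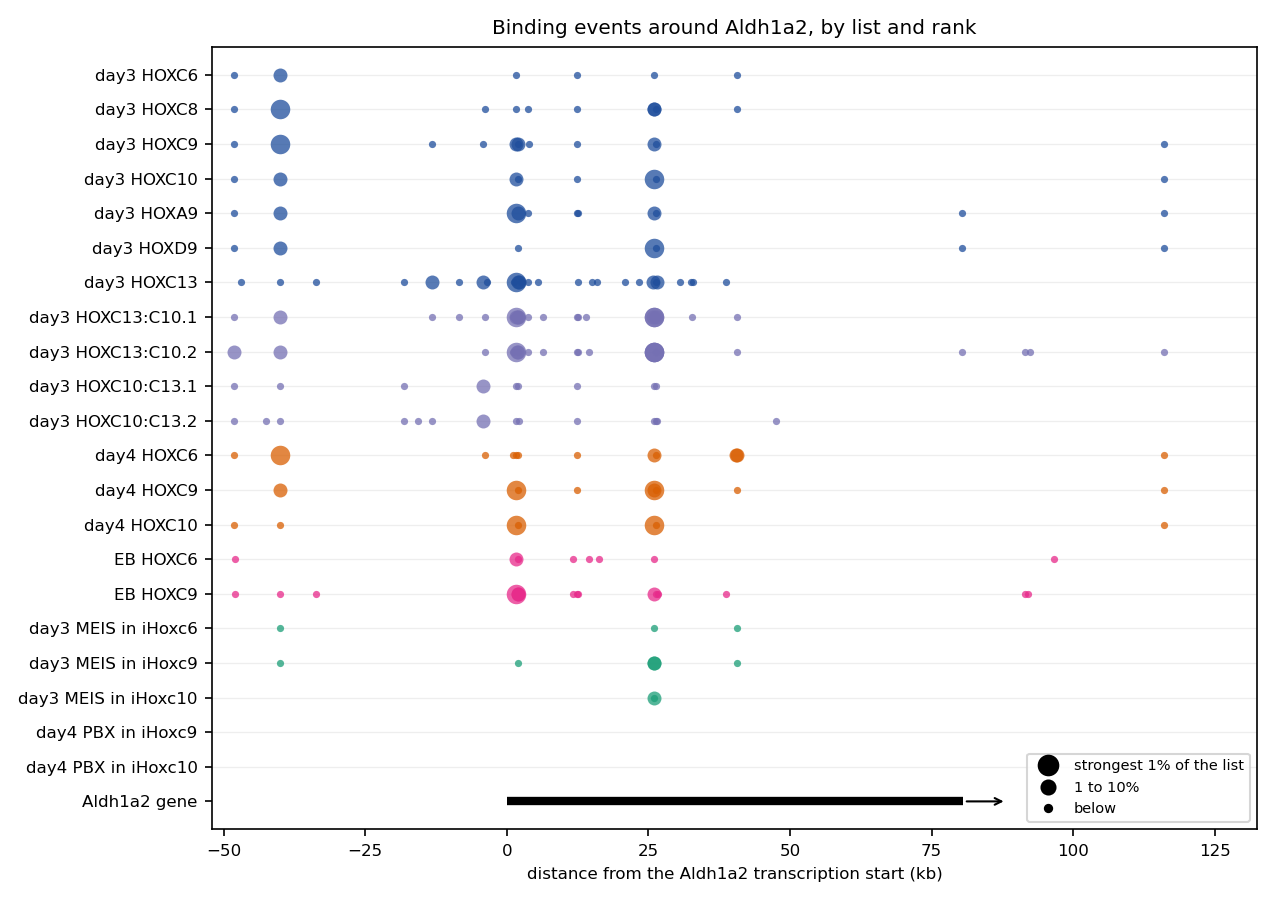
Events around Aldh1a2 in each of the 21 lists, by distance from the transcription start in kb (x axis), with the gene as a black bar at the bottom. Point size gives the rank of the event in its own list. Points line up over many lists 40.1 kb upstream and 1.6 and 25.9 kb downstream, and at each of these places only part of the lists have a point of the largest size.

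Events were denser here than over the genome in every HOX and MEIS list. The ratio of events per Mb in the window to events per Mb of the 2726 Mb of assembled chromosomes was 5.06 for HOXC6, 3.39 for HOXC8, 2.45 for HOXC9 and 4.50 for HOXC10 at day 3. It was 2.64 for HOXA9, 1.87 for HOXD9 and 3.52 for HOXC13. For the other HOX and the MEIS lists the ratio lay between 1.76 in EB HOXC9 and 5.51 in MEIS of the iHoxc6 line. Neither PBX list had an event in the window, at 1165 and 848 events in all.

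The factors divided the 46 sites unequally. HOXC13 at day 3 held 26 sites, 56.5% (42.2 to 69.8%), against 30.3% of all merged sites of the genome. HOXC9 and HOXA9 each held 11 (23.9%), against backgrounds of 18.8% and 16.3%. HOXC8 held 9 (19.6%, background 11.4%), HOXC10 8 (17.4%, background 7.01%), HOXD9 7 (15.2%, background 14.7%) and HOXC6 6 (13.04%, background 4.62%). Among the full-length factors at day 3, the background lay outside the interval for HOXC6, HOXC10 and HOXC13. At a stricter q-value of 1e-05 the HOXC6 share was 5.41%, near that background, which was not computed again at this q-value. Of the 26 HOXC13 sites, 17 were held by no other full-length factor at day 3 (65.4%, 46.2 to 80.6%), against 73.4% of all HOXC13 sites of the genome. Their median rank in the HOXC13 list was 48569 of 115879. The other 9 had a median rank of 8618.

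HOXC13:C10.1 and HOXC13:C10.2 each held 18 sites (39.1%), against 24.5% and 21.7%. HOXC10:C13.1 held 9 (19.6%, background 16.2%) and HOXC10:C13.2 held 14 (30.4%, background 22.7%). The background lay below the interval of both HOXC13:C10 chimeras and inside that of both HOXC10:C13 chimeras. At day 4, HOXC6 held 11 (23.9%, background 17.4%), HOXC9 8 (17.4%, background 11.3%) and HOXC10 7 (15.2%, background 5.81%). In EBs, HOXC6 held 8 (17.4%, background 11.6%) and HOXC9 held 14 (30.4%, background 33%). EB HOXC9, the longest list of the series, was the only HOX list whose share here lay below its share of the genome. The MEIS lists held 3 sites in iHoxc6 (6.52%, background 2.11%), 4 in iHoxc9 (8.70%, background 5.73%) and 1 in iHoxc10 (2.17%, background 3.33%). The signal fraction of the PBX lists was 0.009 and 0.008. PBX held none, against 0.309% and 0.225%, and 0 of 46 allows up to 7.71% by the Wilson interval.

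**Figure D2:**
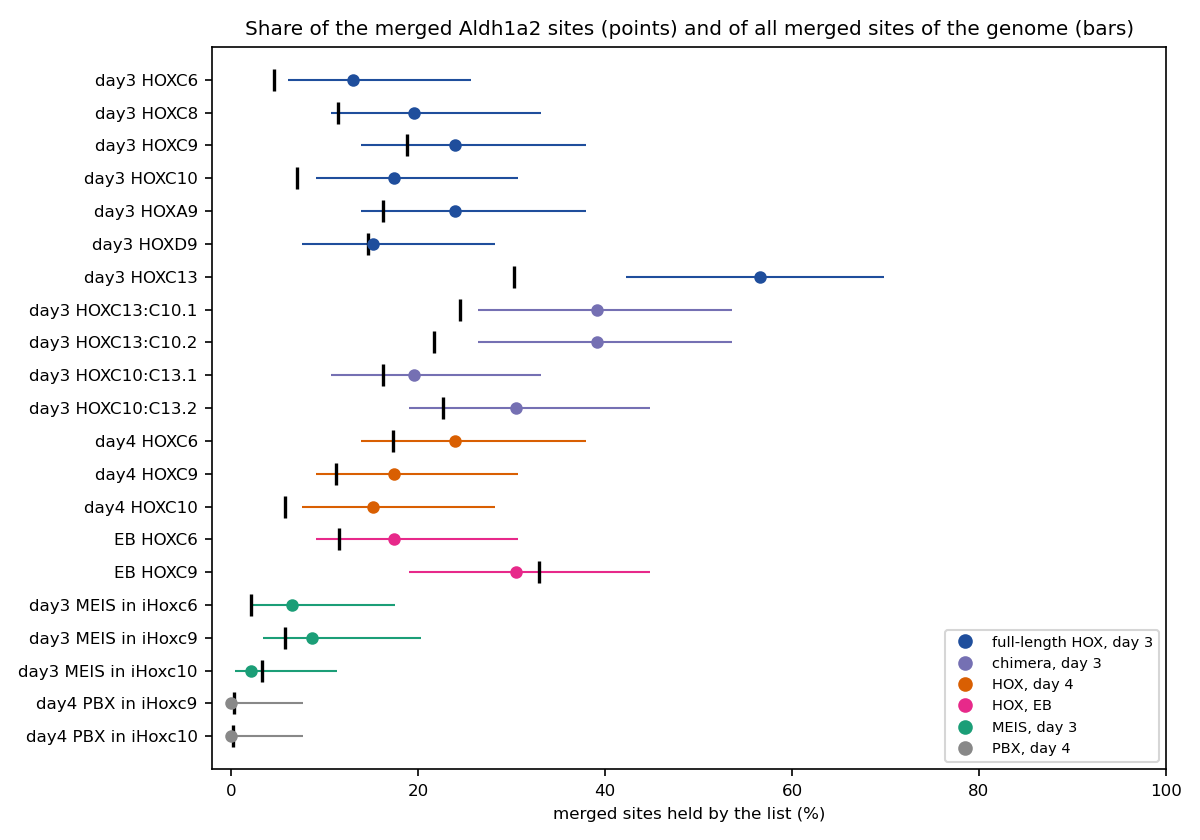
Share of the 46 merged Aldh1a2 sites held by each list, in percent (points with 95% Wilson intervals), and the share of all 377386 merged sites held by the same list (black bars). Day 3 HOXC13 stands highest with 26 sites, and EB HOXC9 is the one HOX list whose point lies below its bar.

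The lowest q-value of a list fell on 1 of 4 sites in all 16 HOX lists. It fell on the 1.6 kb site in 6 lists, on the 25.9 kb site in 4, on the 40.1 kb upstream site in 4 and on the 4.30 kb upstream site in 2. The last 2 were the HOXC10:C13 chimeras. In HOXC13:C10.1, HOXC13:C10.2 and EB HOXC9 the 1.6 and 25.9 kb sites tied in q-value, and the read count decided between them. Ranked among 21938 protein-coding genes by the strongest event in the gene and its flanks, Aldh1a2 was preceded by 11 genes for HOXC10 at day 4 and by 22 for HOXC10 at day 3. It was preceded by 78 genes for HOXC8, 110 for HOXD9, 170 for HOXC13 and 241 for HOXC6, and by 429 each for HOXC9 and HOXA9.

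At the 3 strongest sites the enrichment of the HOX events over the control library ranged from 3.01 to 8.76 on the log2 scale at 40.1 kb upstream. It ranged from 3.00 to 11.25 at 1.6 kb and from 3.32 to 9.63 at 25.9 kb. Every HOX event listed at these sites stood above the scaled control reads by construction, since the caller kept only events that passed its threshold against control.

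The 25.9 kb site, in intron 1, held an event in all 16 HOX lists and all 3 MEIS lists, more than any other site. Its strength differed widely between factors. In day 3 HOXC10 its event ranked 13th of 26873 by q-value, with 1310.5 estimated ChIP reads. In day 4 HOXC10 it ranked 5th of 22027, with 1390 reads. In HOXD9 it ranked 77th of 56400, with 1004 reads. These 3 lists placed their event on the same base, chr9:71241736. HOXC9 followed at rank 970 of 74085 with 1178 reads and HOXA9 at rank 737 of 62916 with 680.6 reads, both 16 bp from the HOXC10 position. HOXC6 ranked its event 4914th of 17900, with 103.8 reads. HOXC13 ranked it 8618th of 115879, with 438.9 reads, and placed it 87 bp away.

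Levels are given as RPM, ChIP reads per 1000000 aligned reads of the pooled libraries. The day 3 levels, in RPM, of the 25.9 kb site were 29.1 for HOXC10 (27.5 to 30.7), 22.6 for HOXC8 (21.2 to 24.1) and 22.5 for HOXC9 (21.2 to 23.8). They were 19.9 for HOXD9 (18.7 to 21.2), 13.6 for HOXA9 (12.6 to 14.7), 7.63 for HOXC13 (6.94 to 8.38) and 3.04 for HOXC6 (2.49 to 3.69). HOXC8 and HOXC9, and HOXC9 and HOXD9, had touching or overlapping intervals, and the other neighbours in this order did not. In signal RPM, ChIP reads per 1000000 reads that the caller assigned to signal, HOXC10 at 300.01 was still highest, HOXC8 stood at 139.5, HOXD9 at 127, HOXC9 at 79.1 and HOXA9 at 69.9, and HOXC6 at 40.6 lay above HOXC13 at 21.9. HOXC13:C10.1 and HOXC13:C10.2 stood far higher, at 114 (111 to 117) and 118 (115 to 121), each over 3 events of the site. HOXC10:C13.1 stood at 3.25 (2.81 to 3.73), overlapping HOXC6, and HOXC10:C13.2 was the lowest HOX list at 1.88 (1.56 to 2.27). The chimeras with the HOXC10 homeodomain were thus higher than either full-length parent here, and those with the HOXC13 homeodomain were lower than both. In signal RPM, HOXC13:C10.2 at 333 was still above HOXC10 at 300.01 and HOXC10:C13.2 at 9.81 still below HOXC13 at 21.9. On that scale HOXC13:C10.1 at 265 lay below HOXC10, and HOXC10:C13.1 at 22.4 was no lower than HOXC13. By the strongest event alone, HOXC13:C10.1 and HOXC13:C10.2 stood at 56.9 and 53.1 RPM, still above HOXC10. In signal RPM these strongest events stood at 132 and 150, both below HOXC10.

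The 1.6 kb site, also in intron 1, showed another order. HOXC13 ranked its event 154th of 115879, with 2820 reads, and HOXA9 ranked its own 519th of 62916, with 797.7 reads. HOXC10 ranked it 561st of 26873, with 419.8 reads. HOXC13, HOXA9 and HOXC10 shared the same base, chr9:71217390. HOXC9 ranked its event 4412th, 20 bp from that position, with 513.6 reads. HOXC8 ranked it 19633rd of 44608, with 86.2 reads, and HOXC6 16702nd of 17900, with 42.3 reads. HOXD9 had no event there, although it had one at 2.0 kb with 136.7 reads. Posterior factors other than HOXD9 therefore held this site at higher ranks than the central factors.

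In RPM, the 1.6 kb site stood at 49.0 for HOXC13 (47.2 to 50.9), 16.0 for HOXA9 (14.9 to 17.1), 9.80 for HOXC9 (8.98 to 10.7) and 9.32 for HOXC10 (8.46 to 10.3). It stood at 2.13 for HOXC8 (1.70 to 2.62) and 1.24 for HOXC6 (0.888 to 1.66). HOXC9 and HOXC10 overlapped, and HOXC8 and HOXC6 did not. In signal RPM, HOXC13 at 140.5 was still highest, but HOXC10 at 96.1 lay above HOXA9 at 81.9 and HOXC9 at 34.5, and HOXC6 at 16.5 lay above HOXC8 at 13.13. The chimera HOXC13:C10.1 had the highest level of any list at any of the 46 sites, 141 (138 to 144), and its event ranked 32nd of 99311. HOXC13:C10.2 stood at 52.5 (50.4 to 54.5), overlapping HOXC13. HOXC10:C13.1 and HOXC10:C13.2 stood at 1.41 (1.12 to 1.74) and 2.84 (2.43 to 3.29), below HOXC13 and HOXC10.

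The 40.1 kb upstream site, in Gm32511, was the strongest site of the central factors and of HOXC9 at day 3. HOXC8 ranked its event 78th of 44608, with 1782 reads, HOXC6 304th of 17900, with 459.2 reads, and HOXC9 578th of 74085, with 1487 reads. All 7 full-length factors placed it on the same base at day 3, chr9:71175719. The caller, MultiGPS, lets conditions share event positions, so a common base is in part its choice. HOXC10 ranked it 2466th with 231.3 reads, HOXA9 2457th with 410.7 and HOXD9 3740th with 237.6. HOXC13 ranked it 33636th, with 124.5 reads. In RPM the order was HOXC8 at 44.0 (42.0 to 46.1), HOXC9 at 28.4 (27.0 to 29.9), HOXC6 at 13.5 (12.3 to 14.7) and HOXA9 at 8.22 (7.45 to 9.07). HOXC10 at 5.14 (4.49 to 5.84), HOXD9 at 4.72 (4.15 to 5.37) and HOXC13 at 2.17 (1.79 to 2.57) followed. Only HOXC10 and HOXD9 overlapped among neighbours of this order. In signal RPM, HOXC8 at 271 was still highest and HOXC13 at 6.20 lowest, but HOXC6 at 179.5 lay above HOXC9 at 99.9, and HOXC10 at 53.0 above HOXA9 at 42.2.

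**Figure D3:**
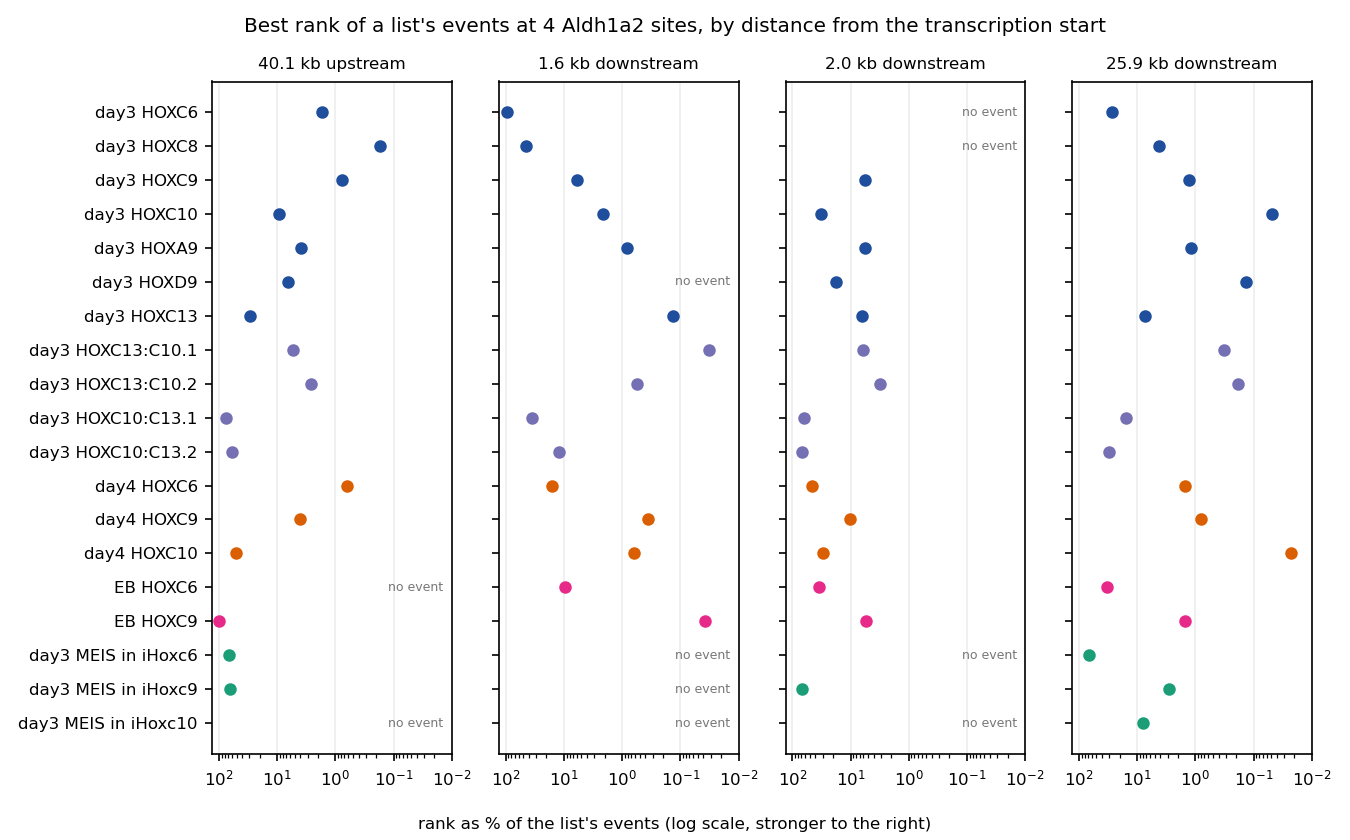
Best rank of each list's events at 4 sites, as a percent of the list (log scale, stronger to the right), for the HOX and MEIS lists. HOXC8 stands farthest right at 40.1 kb upstream, HOXC13:C10.1 and EB HOXC9 at 1.6 kb and the HOXC10 lists at 25.9 kb; lists without an event are marked.

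A ratio between sites inside one list does not depend on the depth of the library, and it was formed after the values above had been seen. How the enrichment of the library acts on it was not tested. It also depends on whether the events of a site are summed. The reads at the 40.1 kb upstream site over those at the 1.6 kb site came to 20.7 in HOXC8 (16.7 to 26.0) and 10.9 in HOXC6 (7.96 to 15.4). The ratio was 2.90 in HOXC9 (2.62 to 3.20), 0.551 in HOXC10 (0.466 to 0.647), 0.515 in HOXA9 (0.456 to 0.581) and 0.0442 in HOXC13 (0.0364 to 0.0526). The central factors and HOXC9 thus had more reads upstream, and HOXC10, HOXA9 and HOXC13 more reads at 1.6 kb. HOXD9 had 237.6 reads upstream and no event at 1.6 kb, so it has no ratio. HOXC9 and HOXA9, which belong to the same paralog group, fell on opposite sides of 1. The ratio was below 1 in all 4 chimeras, between 0.0975 in HOXC13:C10.1 and 0.656 in HOXC10:C13.1 (0.462 to 0.934).

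The 25.9 kb site was compared with the 40.1 kb upstream site in the same way. HOXC6 at 0.226 (0.181 to 0.281), HOXC8 at 0.514 (0.474 to 0.557) and HOXC9 at 0.792 (0.733 to 0.856) had fewer reads at 25.9 kb. HOXA9 at 1.66 (1.46 to 1.88), HOXC13 at 3.53 (2.89 to 4.36), HOXD9 at 4.22 (3.66 to 4.88) and HOXC10 at 5.67 (4.93 to 6.55) had more. Against the 1.6 kb site, the 25.9 kb site had more reads in HOXC8 at 10.6, HOXC10 at 3.12, HOXC6 at 2.45 and HOXC9 at 2.29, and fewer in HOXA9 at 0.853 and HOXC13 at 0.156. HOXA9 and HOXC13 were thus the full-length factors at day 3 with more reads at 1.6 kb than at 25.9 kb.

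**Figure D4:**
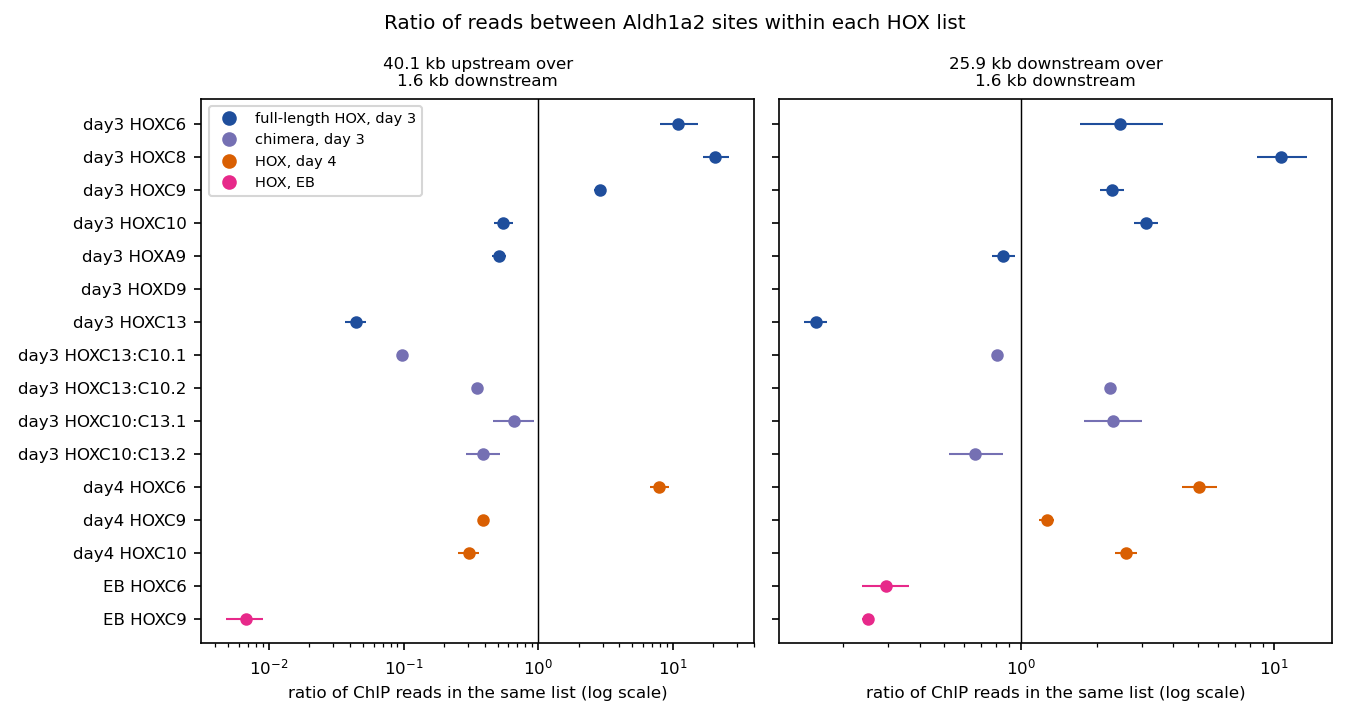
Ratio of ChIP reads between Aldh1a2 sites within each HOX list on a log scale, with exact 95% binomial intervals; the vertical line marks 1. HOXD9 had no event at 1.6 kb and has no point, and EB HOXC6 had none at 40.1 kb upstream. The left panel falls from 20.7 in HOXC8 to 0.0442 in HOXC13 and 0.00671 in EB HOXC9.

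The balance of the sites was then compared between days and with EBs. Day 4 differs from day 3 also in Dox time and in its control library, of 4.72 M reads against 20.6 M, and these cannot be told apart from the day. In HOXC9 the ratio of the 40.1 kb upstream to the 1.6 kb site was 2.90 at day 3, 0.391 at day 4 (0.355 to 0.430) and 0.00671 in EBs (0.00484 to 0.00902). In HOXC6 it was 10.9 at day 3 and 7.94 at day 4 (6.80 to 9.28), with overlapping intervals, and the EB list had no upstream event. In HOXC10 it was 0.551 at day 3 and 0.305 at day 4 (0.255 to 0.364). HOXC9 thus moved from more reads upstream to more reads at 1.6 kb between days, a change of side that neither HOXC6 nor HOXC10 showed. The change is for the 1.6 kb site and did not extend to its neighbour at 2.0 kb. There HOXC9 fell from 878.9 reads (16.8 RPM) at day 3 to 279.3 reads (6.13 RPM) at day 4. At day 3 the 1.6 kb site had fewer reads than its neighbour, 513.6. The upstream reads of HOXC9, 1487.2 at day 3 and 586.7 at day 4, were above those at 2.0 kb on both days. Reads of the 1.6 and 2.0 kb sites were not summed, and how the caller divided reads between these neighbours was not tested.

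EB HOXC9 gave the 1.6 kb site rank 49 of 128388, with 6427 reads or 103 RPM. Day 3 HOXC9 had 9.80 RPM, so EBs were 10.5-fold higher (9.57 to 11.5), or 6.27-fold in signal RPM. At the 40.1 kb upstream site the order turned. EB HOXC9 had 43.1 reads at rank 126256 of 128388, or 0.689 RPM (0.498 to 0.926), against 28.4 at day 3, a ratio of 0.0243 (0.0175 to 0.0328). EB HOXC6 had no event upstream, but its 1.6 kb event was at 11.5 RPM (10.4 to 12.7), against 1.24 at day 3, a ratio of 9.25 (6.76 to 13.13), or 2.88 in signal RPM. At the 25.9 kb site the EB levels were 25.6 for HOXC9 (24.4 to 26.9) and 3.39 for HOXC6 (2.79 to 4.06), next to 22.5 and 3.04 at day 3. The ratio of EB to day 3 there was 1.14 for HOXC9 and 1.11 for HOXC6, but 0.682 and 0.346 in signal RPM, so its direction depends on the scale. Dox time, the control library and the patterning signals all differ between EBs and day 3 and cannot be told apart.

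From day 3 to day 4, HOXC9 at the 1.6 kb site went from 9.80 to 33.0 RPM, a ratio of 3.36 (3.04 to 3.72), or 5.86 in signal RPM, and at the 40.1 kb upstream site from 28.4 to 12.9, a ratio of 0.454 (0.412 to 0.500), or 0.790. HOXC6 at 40.1 kb upstream went from 13.5 to 45.4, a ratio of 3.37 (3.04 to 3.76), but the ratio was 0.821 in signal RPM, so its direction depends on the scale. At 25.9 kb HOXC6 went from 3.04 to 29.0, a ratio of 9.52 (7.75 to 11.7), or 2.32 in signal RPM. For HOXC10 the day 4 to day 3 ratio was 0.487 at 25.9 kb (0.451 to 0.525), 0.584 at 1.6 kb (0.512 to 0.665) and 0.323 at 40.1 kb upstream (0.263 to 0.397), and in signal RPM it was 0.925, 1.11 and 0.614. HOXC9 at 25.9 kb had a ratio of 1.86 (1.73 to 2.00), or 3.24 in signal RPM, but 1.09 by the strongest event of each list. HOXC6 at 1.6 kb had a ratio of 4.61 (3.31 to 6.67), or 1.12 in signal RPM. HOXC9 at 1.6 and 25.9 kb and HOXC6 at 25.9 kb were thus higher at day 4 on both scales. By the strongest event, HOXC9 at 25.9 kb was higher by little. HOXC6 at 1.6 kb was higher in RPM. Its ratio of 1.12 in signal RPM was small and has no interval, so no direction is given on that scale. HOXC9 and HOXC10 were lower on both scales at 40.1 kb upstream.

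**Figure D5:**
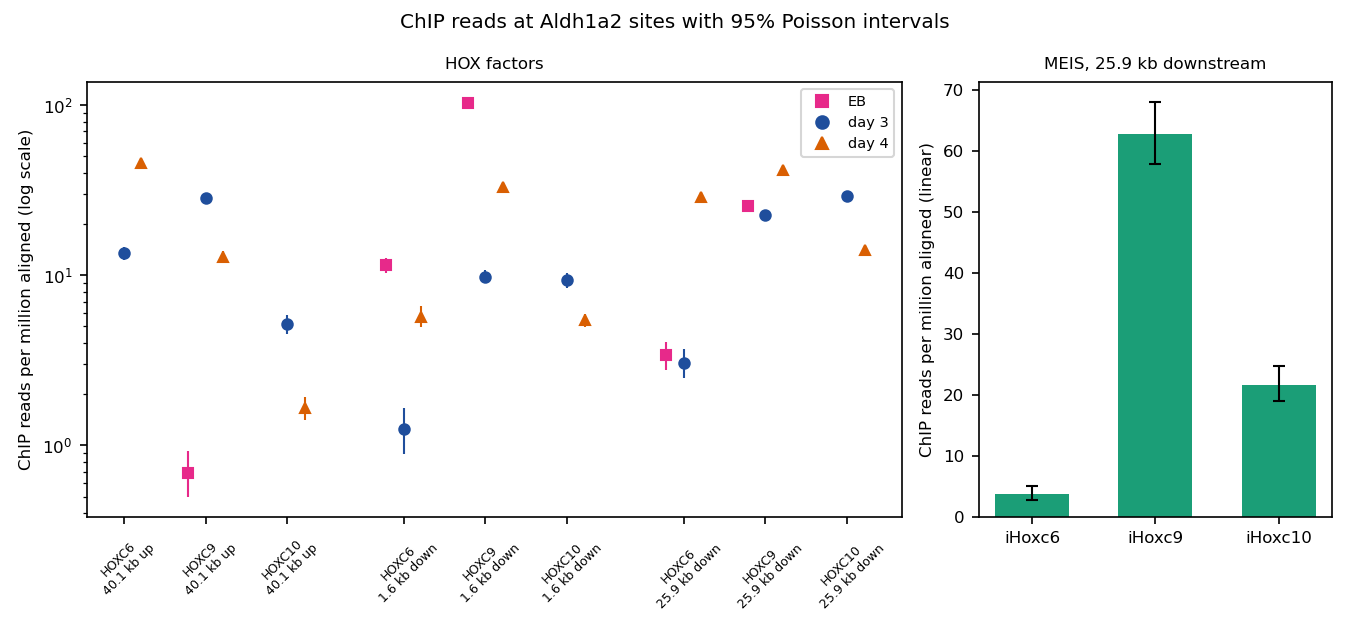
Left, ChIP reads in RPM on a log scale at 3 sites for HOXC6, HOXC9 and HOXC10 in EBs (squares), at day 3 (circles) and at day 4 (triangles), with 95% Poisson intervals. Right, MEIS at 25.9 kb in 3 lines on a linear scale. HOXC9 in EBs is at 103 at 1.6 kb and at 0.689 at 40.1 kb upstream.

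Shared positions were counted event by event, since sites chain several events. At day 3 all 8 HOXC10 events had a HOXC9 event within 100 bp (100%, 67.6 to 100%), against 81.3% of all HOXC10 events of the genome, and 8 of 12 HOXC9 events had a HOXC10 event (66.7%, 39.1 to 86.2%), against 30.4%. All 6 HOXC6 events had a HOXC8 event (61.0 to 100%), against 90.2%, and 5 of 6 had a HOXC9 event (83.3%, 43.6 to 97.0%), against 69.8%. HOXC13 shared 8 of 27 events with HOXC9 (29.6%, 15.9 to 48.5%), against 22.1%. With every list reduced to 17900 events the shares were 4 of 7 for HOXC10 with HOXC9, 4 of 7 for HOXC13 with HOXC9 and 2 of 6 for HOXC6 with HOXC8. In the shares of HOXC10 with HOXC9, HOXC6 with HOXC8 and HOXC9, and HOXC13 with HOXC9, the genome value lay inside the interval.

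Of the day 4 events, 7 of 12 for HOXC6 (58.3%, 32.0 to 80.7%), 8 of 9 for HOXC9 (88.9%, 56.5 to 98.0%) and 7 of 7 for HOXC10 (64.6 to 100%) had a day 3 event of the same factor. The genome values were 25.9%, 81.8% and 56.4%. The HOXC6 share was 2 of 12 (16.7%) at a q-value of 1e-05 and 5 of 5 with equal list lengths, so the side of the genome value on which it lies depends on the setting. Of the EB events, 8 of 15 for HOXC9 (53.3%, 30.1 to 75.2%) and 3 of 8 for HOXC6 (37.5%, 13.7 to 69.4%) had one, against 23.5% and 7.38%. With equal list lengths the EB HOXC9 share was 4 of 4, and at a q-value of 1e-05 the EB HOXC6 share was 1 of 6. Of the 17 sites of the EB lists, 7 were held by no full-length factor at day 3 (41.2%, 21.6 to 64.0%), against 65.2% over the genome. None of the 7 had TTTAC within 50 bp of the mean position, against 30.3% of all merged sites of the genome. The highest rank of an event at these sites was 14688 of 44751, for EB HOXC6 at 11.7 kb. Within 50 bp of that event itself a TTTAC was present. Within 100 bp of the mean position some of the 7 sites had one, so the absence depends on the window.

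Chimera events were set against the parent whose homeodomain they carry and then against the other parent. HOXC10:C13.1 had a HOXC13 event at 7 of 9 events (77.8%, 45.3 to 93.7%) and HOXC10:C13.2 at 9 of 14 (64.3%, 38.8 to 83.7%), against 49.5% and 47% over the genome. HOXC13:C10.1 had a HOXC10 event at 11 of 22 (50.0%, 30.7 to 69.3%) and HOXC13:C10.2 at 10 of 22 (45.5%, 26.9 to 65.3%), against 21.9% and 31.3%. With the other parent, HOXC10:C13.1 and HOXC10:C13.2 shared 7 of 9 and 7 of 14 events, and HOXC13:C10.1 and HOXC13:C10.2 15 of 22 and 8 of 22. Genome values for these were not computed. HOXC10:C13.1 thus shared as many events with either parent, and HOXC13:C10.1 shared more with HOXC13. HOXC10:C13.2 and HOXC13:C10.2 shared more with the homeodomain parent. With equal list lengths 2 of 2 and 3 of 3 events of the HOXC10:C13 chimeras were shared with HOXC13, and 8 of 9 and 7 of 10 of the HOXC13:C10 chimeras with HOXC10.

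At the 3 sites described next HOXC13 had more reads than any other list, and only the first of them was held by both chimeras that carry its homeodomain. The 4.30 kb upstream site ranked 4011th for HOXC13, with 632.7 reads, 2317th for HOXC10:C13.1, with 269.8, and 5765th for HOXC10:C13.2, with 210.3. Apart from these it was held by HOXC9 alone, with 53.2 reads at rank 51672 of 74085, and by neither HOXC13:C10 chimera. The 26.6 kb site ranked 2399th for HOXC13, with 834.4 reads, and it was held also by HOXC13:C10.1 (231.6 reads), HOXC10:C13.2 (128.0 reads) and EB HOXC9 (53.1 reads). Its printed stretch holds TTTAC on either strand 3 times, and the 4.30 kb upstream stretch holds none. The 13.18 kb upstream site ranked 3426th for HOXC13, with 693.1 reads, and was held at 46.4 to 61.7 reads by HOXC9, HOXC13:C10.1 and HOXC10:C13.2. Over the window, TTTAC lay within 50 bp of 13 of the 26 HOXC13 sites and of 5 of the 20 others, against 30.3% of all merged sites. The genome shares for sites with and without HOXC13 were not computed, so these counts show no preference particular to this gene.

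The 40.6 kb site, in intron 4, was held by 6 HOX and 2 MEIS lists, with the most reads in day 4 HOXC6. Day 4 HOXC6 had a pair of events there, with 297.5 and 353.6 reads at ranks 6308 and 6384 of 69297. Day 3 HOXC6 had 57.4 reads, HOXC8 45.5 and day 4 HOXC9 46.4, and the HOXC13:C10 chimeras had 95.9 and 69.6. No posterior full-length factor had an event there at day 3. MEIS in iHoxc6 had 57.2 reads, its highest rank around the gene at 3143 of 8219, and MEIS in iHoxc9 had 28.6.

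MEIS was found at 4 sites, each of which also held HOX events. At 25.9 kb it had 610.3 reads over 2 events in iHoxc9, 235.5 over 2 events in iHoxc10 and 45.6 in 1 event in iHoxc6. In RPM these were 62.9 (58.0 to 68.1), 21.7 (19.1 to 24.7) and 3.76 (2.78 to 5.06). The iHoxc9 level was 2.90 times the iHoxc10 level (2.48 to 3.37) and 16.7 times the iHoxc6 level (12.3 to 22.9), or 1.45 and 5.42 times in signal RPM. The order was the same on both scales, from 1 library per line, and the signal fraction of these libraries had the same order, 0.238, 0.119 and 0.077. Its part in the difference was not tested. The MEIS events of iHoxc9 and iHoxc10 lay 53 bp before and 60 bp after the HOXC10 position, and that of iHoxc6 at the former.

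At the 40.1 kb upstream site MEIS had 35.2 reads in iHoxc6 and 29.4 in iHoxc9 and no event in iHoxc10, where HOXC10 itself was at 5.14 RPM. At 2.0 kb it had 33.5 reads in iHoxc9 alone. All 3 MEIS events in iHoxc6 (background 53.8%), 4 of 5 in iHoxc9 (background 66.8%) and both in iHoxc10 (background 53.9%) had a day 3 event of the HOX factor of the line within 100 bp, 9 of 10 in all (90%, 59.6 to 98.2%).

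Ranked by their best event over all lists, the other widely held sites were weaker. The 2.0 kb site was held by 14 HOX lists and not by HOXC6 or HOXC8 at day 3. Its highest rank was 2772 of 87315, for HOXC13:C10.2, and the highest of a full-length factor at day 3 was 3493 of 62916, for HOXA9 with 324.9 reads. Over 2 events each, day 3 HOXC9 had 878.9 reads there and HOXC13 had 806.3. For HOXC9 this was 16.8 RPM, more than its 9.80 RPM at 1.6 kb. The 48.1 kb upstream site was held by 14 HOX lists, with 57.2 reads in HOXC6 and 427.9 in HOXC13:C10.2, but not by HOXC13. The 26.3 kb site was held by 14 as well, with 54.0 reads in HOXC10 and 581.7 in HOXC13:C10.1. The 12.3 kb site was held by 12, with 31.1 reads in HOXC6 and 160.0 in HOXC13:C10.1. Of the 7 sites held by 10 or more HOX lists, 2 were held by all 7 full-length factors at day 3, those at 40.1 kb upstream and 25.9 kb.

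Other genes of the retinoic acid pathway were counted in the same way, from a list of 18 genes for synthesis, transport, degradation and reception, each with 50 kb on either side. At day 3 an event of HOXC6 was found at 16 of 18 (background 45.5% of protein-coding genes), of HOXC8 at 18 (65.8%), of HOXC9 at 16 (70.4%) and of HOXC10 at 16 (46.9%). HOXA9 had events at 17 (76.5%), HOXD9 at 18 (77.6%) and HOXC13 at 17 (84.3%). Among the top 10000 events of each list, HOXC6 was at 8 of 18 (background 25.4%), HOXC8 at 10 (21.6%), HOXC9 at 9 (19.1%), HOXC10 at 13 (22%), HOXA9 at 10 (24.5%), HOXD9 at 13 (27.2%) and HOXC13 at 7 (25.7%). In each of these 14 counts the share of the list lay above the background, and longer genes have larger windows. Outside the full-length day 3 lists, 2 lists lay below it by top 10000 events. HOXC10:C13.1 had such events at 2 of 18 (background 21.7%) and PBX in iHoxc9 at 2 of 18 (16.9%). The remaining lists lay above it or level with it.

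By top 10000 events over all 21 lists, Aldh1a2 had 72 and stood in this group after Rarb, a retinoic acid receptor, with 138 and Stra6, a retinol uptake receptor, with 73. The other aldehyde dehydrogenases that make retinoic acid had fewer, 16 at Aldh1a1 and 5 at Aldh1a3. The retinol dehydrogenase gene Rdh10 had 9. Of the degrading enzymes, Cyp26b1 had 27, Cyp26c1 24 and Cyp26a1 17, the last 2 being neighbours on chromosome 19 with overlapping windows. Aldh1a2 was the gene of the group with a top 10000 event in the most lists, 19 of 21, followed by Rarb with 18. MEIS in iHoxc6 has 8219 events in all, so every event of that list counts as a top event.

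The genes with the pattern most like that of Aldh1a2 were looked for over the 21 lists, as events in the gene and flanks per 10000 listed events, among 15871 protein-coding genes with 20 or more events. The nearest by Pearson's r over the 21 lists were Lin52 (r = 0.875), Vim (0.843), Calcb (0.842), Atp8a1 (0.840) and Ednrb (0.832). The lists share control libraries, and some share cell lines. With top 10000 events only, r was 0.449 for Lin52, -0.00515 for Vim, -0.160 for Calcb, 0.736 for Atp8a1 and 0.404 for Ednrb, so the first place went to Sh2d6 (0.889), and only Atp8a1 of the 5 kept an r above 0.5.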

How the data were processed

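ChIP-seq of HOX, MEIS and PBX was deposited as lists of binding events, 21 lists from 40 ChIP libraries. The authors aligned reads to mm10 with Bowtie 1.0.1, and the processing notes also name Picard 2.8.2 and edgeR 3.22.5. They called events with MultiGPS on the pooled libraries of each group with a control library as background and kept those with q-values below 0.001. Each event in the deposited lists carries estimated counts of ChIP reads and of scaled control reads. Per the file headers, the caller also gave each event a log2 value for its ratio to control and a log2 q-value. Further columns hold the authors' own comparisons between conditions and were not used. Groups came from the sample labels.

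Events were ranked within their list by q-value and then by read count. Sites were chained at 100 bp with Python 3.11.15, numpy 2.4.6 and scipy 1.17.1, and drawn with matplotlib 3.10.9. An event counted as shared within 100 bp of another, and the reads of a list at a site are the sum over its events there. Reads were scaled to 1000000 aligned reads (RPM) of the pooled libraries, from the depths in the file headers. Intervals are 95% Wilson, exact Poisson and exact binomial intervals of counting error, and depth per library ranged from 5.04 to 32.9 M aligned reads. No test between lists was run, since the values used are pooled over libraries and the authors' comparison columns were left out. The counting and interval code was tested on simulated data.

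The members and lists were chosen with earlier results of these data known. Sites named are those with an event among the top 10000 of any list or with a MEIS event, and those at 1.04 and 11.7 kb were named after their values had been seen. The within-list ratios, the TGACAG motif and the alternative of 1 strongest event per site were added after values had been seen.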

Additional observations from a re-analysis of the deposited data

How the results depend on the processing

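Of 312 values under alternative settings, 240 stayed within their bounds, 66 moved beyond them and 6 reversed. The bounds were counting intervals for shares and read ratios, and a fixed fold range for ranks and for counts of sites and genes. The 37 counts and shares kept within these bounds with distances of 50 and 200 bp and with 25 kb flanks. With a q-value of 1e-05 the share of sites held was 5.41% for HOXC6 and 2.70% for MEIS in iHoxc9, and the shared events were 100% for HOXC6 with HOXC9, 16.7% for day 4 HOXC6 with day 3 and 88.9% for HOXC10:C13.2 with HOXC13. With every list reduced to 17900 events, 13 sites were left. The share held was then 46.2% for HOXC6 and day 4 HOXC10, 53.8% for HOXC10, 38.5% for HOXA9, 30.8% for day 4 HOXC9, EB HOXC6 and MEIS in iHoxc9, and 23.1% for MEIS in iHoxc6. Shared events were 57.1% for HOXC10 with HOXC9 and for HOXC13 with HOXC9, 33.3% for HOXC6 with HOXC8, 88.9% and 70.0% for HOXC13:C10.1 and HOXC13:C10.2 with HOXC10, and 100% for both HOXC10:C13 chimeras with HOXC13, for EB HOXC9 and for day 4 HOXC6 and HOXC9 with day 3. Fewer events per list cause these by construction.

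In signal RPM, ratios at 40.1 kb upstream were 0.530 for HOXC10 over HOXC9, 0.821 (reversed), 0.790 and 0.614 for day 4 over day 3 of HOXC6, HOXC9 and HOXC10, 0.0145 for EB over day 3 HOXC9 and 0.338 for MEIS in iHoxc9 over iHoxc6. At 1.6 kb they were 2.78 for HOXC10 over HOXC9, 1.12, 5.86 and 1.11 (reversed) for day 4 over day 3 in the same order, and 2.88 and 6.27 for EB over day 3 of HOXC6 and HOXC9. At 25.9 kb they were 3.79 for HOXC10 over HOXC9, 2.32, 3.24 and 0.925 for day 4 over day 3, 0.346 and 0.682 (reversed) for EB over day 3, and for MEIS 1.45 (iHoxc9 over iHoxc10), 5.42 (iHoxc9 over iHoxc6) and 3.74 (iHoxc10 over iHoxc6). The scale alone makes these differences.

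With the strongest event of a site in place of the sum, the 25.9 kb over 1.6 kb ratio was 5.502 in HOXC8, 0.466 in HOXC13:C10.1, 1.40 in HOXC13:C10.2 and 0.743 (reversed) in day 4 HOXC9. The 25.9 kb over 40.1 kb upstream ratio was 0.266, 4.14, 2.90 and 1.90 in the same lists, and the 40.1 kb upstream over 1.6 kb ratio 0.113 and 0.484 in the HOXC13:C10 chimeras. Day 4 over day 3 HOXC9 at 25.9 kb was 1.09, and MEIS 8.29 for iHoxc9 and 3.29 for iHoxc10 over iHoxc6. Motif shares were 65.2% for TAAT and 23.9% for TTTAC within 25 bp, and 91.3% for TAAT and 80.4% for TTTAT within 100 bp. With top 10000 events the retinoic acid genes counted were 8 for HOXC6, 10 for HOXC8, 9 for HOXC9, 10 for HOXA9 and 7 for HOXC13, and the r of Vim (-0.00515) and Calcb (-0.160) reversed.

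No paired analysis was possible because each list pools its libraries, so leaving out a library and the replicate block were not run either. The spread between differentiations is therefore unknown. No depth was subsampled, so what depth alone limits was not measured.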
